A study of Mus musculus with 25 samples.

Results

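The Ifi200 cluster is a run of related interferon-inducible genes on mouse chromosome 1. It was examined in the window mm10 chr1:173400000-174100000, across 25 deposited ChIP-seq peak lists. Its 5 members here are Ifi202b, Mndal, Ifi203, Ifi204 and Aim2, of 21887 protein-coding genes in the RefSeq annotation, and 18 protein-coding genes overlap the window. The cluster was chosen by the TCF-1 peaks of DN3 cells, of which Ifi202b held more than any other gene, so the TCF-1 counts below are a description and carry no test. TCF-1, encoded by Tcf7, is an HMG-box transcription factor of T cell development.

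The mutant DN3 cells were TCF1 KO cells of the mouse Scid.adh line, a thymic lymphoma line used as a model of the DN3 stage of T cell development. Their controls were Scid.adh cells with empty vector, titled wild type and called EV cells here. The other cells were NIH-3T3, a mouse fibroblast line, after TCF1 induction, and untreated NIH-3T3 cells as their control. In DN3 cells there were 2 KO and 2 EV lists each for CTCF, SMC1, NIPBL and H3K27ac, and 2 EV lists for TCF-1. In fibroblasts there were 2 CTCF lists for induced cells and 2 for untreated cells, 1 SMC1 list for each, and 1 TCF-1 list for induced cells. TCF-1 lists exist here for EV cells and induced fibroblasts alone, so the loss of TCF-1 in KO cells could not be checked. Each cell type is 1 line, and the labels say neither whether the KO cells are 1 clone nor how TCF1 was induced.

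The Ifi200 genes, also called PYHIN genes, encode proteins with a DNA-binding HIN domain, most of them with a pyrin domain through which they join signalling complexes. Interferons switch many of them on through STAT and IRF factors, and several sense DNA in the nucleus or cytosol. Aim2 encodes the cytosolic DNA sensor that nucleates the AIM2 inflammasome, and Ifi202b encodes a protein that lacks the pyrin domain and antagonises AIM2. Ifi204 encodes a DNA-binding protein linked to innate sensing and to growth control, and Mndal and Ifi203 encode nuclear family members. CTCF binds insulator sites and halts cohesin, SMC1 is a subunit of cohesin, NIPBL loads cohesin, and H3K27ac marks active promoters and enhancers.

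The lists hold peak positions, and 17 of the 25 hold nothing else, so the measure used was the number of base pairs covered by peaks. A gene was counted with 2 kb on each side. The lists held 38369 to 68306 peaks for CTCF, 70438 to 105033 for SMC1, 9206 to 23951 for NIPBL, 36544 to 42180 for H3K27ac and 4978 to 39489 for TCF-1. The sequencing depth behind them is unknown, so no interval that needs it is given. H3K27ac in DN3 cells covered 6 of 6 T lineage markers in every list, among them Bcl11b and Ptcra. It covered 2 of 6 fibroblast markers, Pdgfrb and Thy1, and was at 0 in every list at Col1a1, Col1a2, Col3a1 and Fn1. It also covered 2 of 4 myeloid markers, Spi1 and Itgam, and 2 of 4 B lineage markers. SMC1 covered 5 of the 6 T lineage markers more in every DN3 list than in every fibroblast list, and 5 of the 6 fibroblast markers less, against 10.6% of all genes more and 57.2% less.

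The promoters of 3 members are shown because they bear on how far neighbouring copies can be told apart and because H3K27ac covers them differently. They are RefSeq promoter entries of build GRCm38.p6, whose chromosome coordinates are those of mm10, from 250 bases before to 50 after the annotated start, 5′ to 3′ on the gene's strand, which is minus for all 3. The coordinates are chr1:173880138-173880437 for Mndal, chr1:173942443-173942742 for Ifi203 and chr1:173982795-173983094 for Ifi202b. Capitals mark a match to the interferon-stimulated response element (ISRE), searched as GAAA, any 2 bases and GAAA, in Mndal and Ifi203 and to the gamma-activated site TTCNNNGAA in Ifi202b.
Mndal: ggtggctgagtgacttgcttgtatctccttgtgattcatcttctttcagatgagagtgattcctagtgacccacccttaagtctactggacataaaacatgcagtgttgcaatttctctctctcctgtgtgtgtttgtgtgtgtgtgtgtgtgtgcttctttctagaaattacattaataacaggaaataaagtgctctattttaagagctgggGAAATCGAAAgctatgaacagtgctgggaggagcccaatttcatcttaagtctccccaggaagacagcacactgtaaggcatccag
Ifi203: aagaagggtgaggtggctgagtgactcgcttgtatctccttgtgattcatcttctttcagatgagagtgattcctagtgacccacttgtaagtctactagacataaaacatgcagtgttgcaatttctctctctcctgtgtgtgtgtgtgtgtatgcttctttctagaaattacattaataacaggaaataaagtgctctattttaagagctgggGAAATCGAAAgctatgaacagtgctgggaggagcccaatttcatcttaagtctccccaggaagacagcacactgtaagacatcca
Ifi202b: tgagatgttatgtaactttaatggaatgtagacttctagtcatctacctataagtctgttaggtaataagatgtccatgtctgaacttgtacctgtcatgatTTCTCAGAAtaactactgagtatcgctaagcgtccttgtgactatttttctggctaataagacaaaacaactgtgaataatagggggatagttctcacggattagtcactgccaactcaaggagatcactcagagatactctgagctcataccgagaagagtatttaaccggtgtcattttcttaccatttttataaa
The Mndal and Ifi203 promoters were 94.3% identical over 299 aligned bases, with a longest identical run of 139 bases. Of the 263 stretches of 38 bases in each, the length of the longer sequenced read, 132 occurred in the other. Each gene has another promoter entry, not shown, which shared fewer stretches, 26 of 263 for Mndal and 21 of 263 for Ifi203. The Ifi202b promoter shared 0 of its 263 stretches with the promoter of any other gene. The sequence inside Ifi202b, where its TCF-1 sites lie, was not examined, so sharing with other copies there was not tested. Across the 12 Ifi200 genes with a promoter entry, 9 shared at least one such stretch with another gene's promoter, against 19.9% of all 32851 mouse promoter entries, a figure that includes overlapping entries of neighbouring genes. Ifi206 and Ifi208, PYHIN genes of the window, shared an identical run of 182 bases. A read that falls inside such a run has more than one possible origin, and the lists carry no mapping quality or copy number, so how reads of repeated copies were placed was not tested. Ifi204 had no entry.

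Motifs were searched on both strands, and no matches of different motifs overlapped. The ISRE occurred in at least 1 promoter entry of 9 of the 12 genes and in 3.44% of all promoter entries. Counts of the 12 are per gene and the shares are per entry, so their units differ. Where aligned, the Ifi206, Ifi208 and Ifi213 promoters were 98.5 to 98.9% identical, so their matches are not separate occurrences. The same holds for the Mndal and Ifi203 promoters shown, 94.3% identical. Ifi211 was 93.5% identical to Ifi205 and 87.5% to Ifi207 where aligned. The 9 genes are thus not 9 separate occurrences of the ISRE. In the entries shown, the ISRE match began 36 bases before the start in Mndal and 35 bases before it in Ifi203. The other Mndal entry had its match 54 bases before the start, on the opposite strand, and the other Ifi203 entry had none. CTTTGA, a core motif of TCF factors, occurred in 3 of the 12, which were Ifi206, Ifi213 and Ifi208, against 16.0% of all entries. TTCNNNGAA occurred in 1 of the 12, the Ifi202b promoter, against 8.30% of all entries. Each match is a description of these letters in this window.

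In DN3 cells TCF-1 peaks of the window lay mostly within Ifi202b. The EV lists held 14 and 15 TCF-1 peaks in the window, covering 4546 and 6536 bp. Of that coverage, 3502 and 5113 bp lay at Ifi202b, 631 and 200 bp at Ifi203, and none at Mndal, Ifi204 or Aim2. Regions with a TCF-1 peak in both EV lists numbered 3107 in the genome and 9 in the window. They comprised 7 at Ifi202b, 1 at Ifi203 and 1 between Ifi203-ps and Mndal. Across all genes, 1 other gene had as many as 5 such sites within 2 kb, and 13.7% of protein-coding genes had at least 1.

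The 7 Ifi202b sites were all inside the gene. They lay at chr1:173971374-173971705, 173973134-173973980, 173974099-173975202, 173976900-173977416, 173978346-173978877, 173978965-173979385 and 173979864-173980469. Their centres were 11.3, 9.29, 8.19, 5.69, 4.23, 3.67 and 2.68 kb downstream of the annotated start, in a gene of 20276 bp. The median width of these sites was 532 bp, against 467 bp for all 3107.

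These 7 sites lacked what most TCF-1 sites of DN3 cells carried. H3K27ac overlapped 0 of the 7 in any KO or EV list, whereas 96.7% of the 3107 sites had it in both KO lists and 96.8% in both EV lists. All 9 sites of the window belonged to the 2.35% of sites with no H3K27ac in any list. NIPBL overlapped 0 of the 7 in any list, and 85.2% of all sites had it in both KO lists and 70.9% in both EV lists. The induced fibroblast TCF-1 list overlapped 0 of the 7 and 77.8% of all sites.

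SMC1 at the same sites separated KO from EV cells. No KO list had an SMC1 peak at any of the 7 sites, against 98.2% of all 3107 sites with SMC1 in both KO lists. In EV cells, 3 of the 7 had SMC1 in both lists and all 7 in at least 1, against 98.1% of all sites in both EV lists. Sites with SMC1 in both EV lists and in no KO list numbered 11 in the genome. The window held 4 of them, 3 at Ifi202b and 1 between Ifi203-ps and Mndal, at chr1:173847523-173847825. These 4 sites also stand in the TCF-1 lists that singled out the cluster, so the share is a description.

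**Figure D1:**
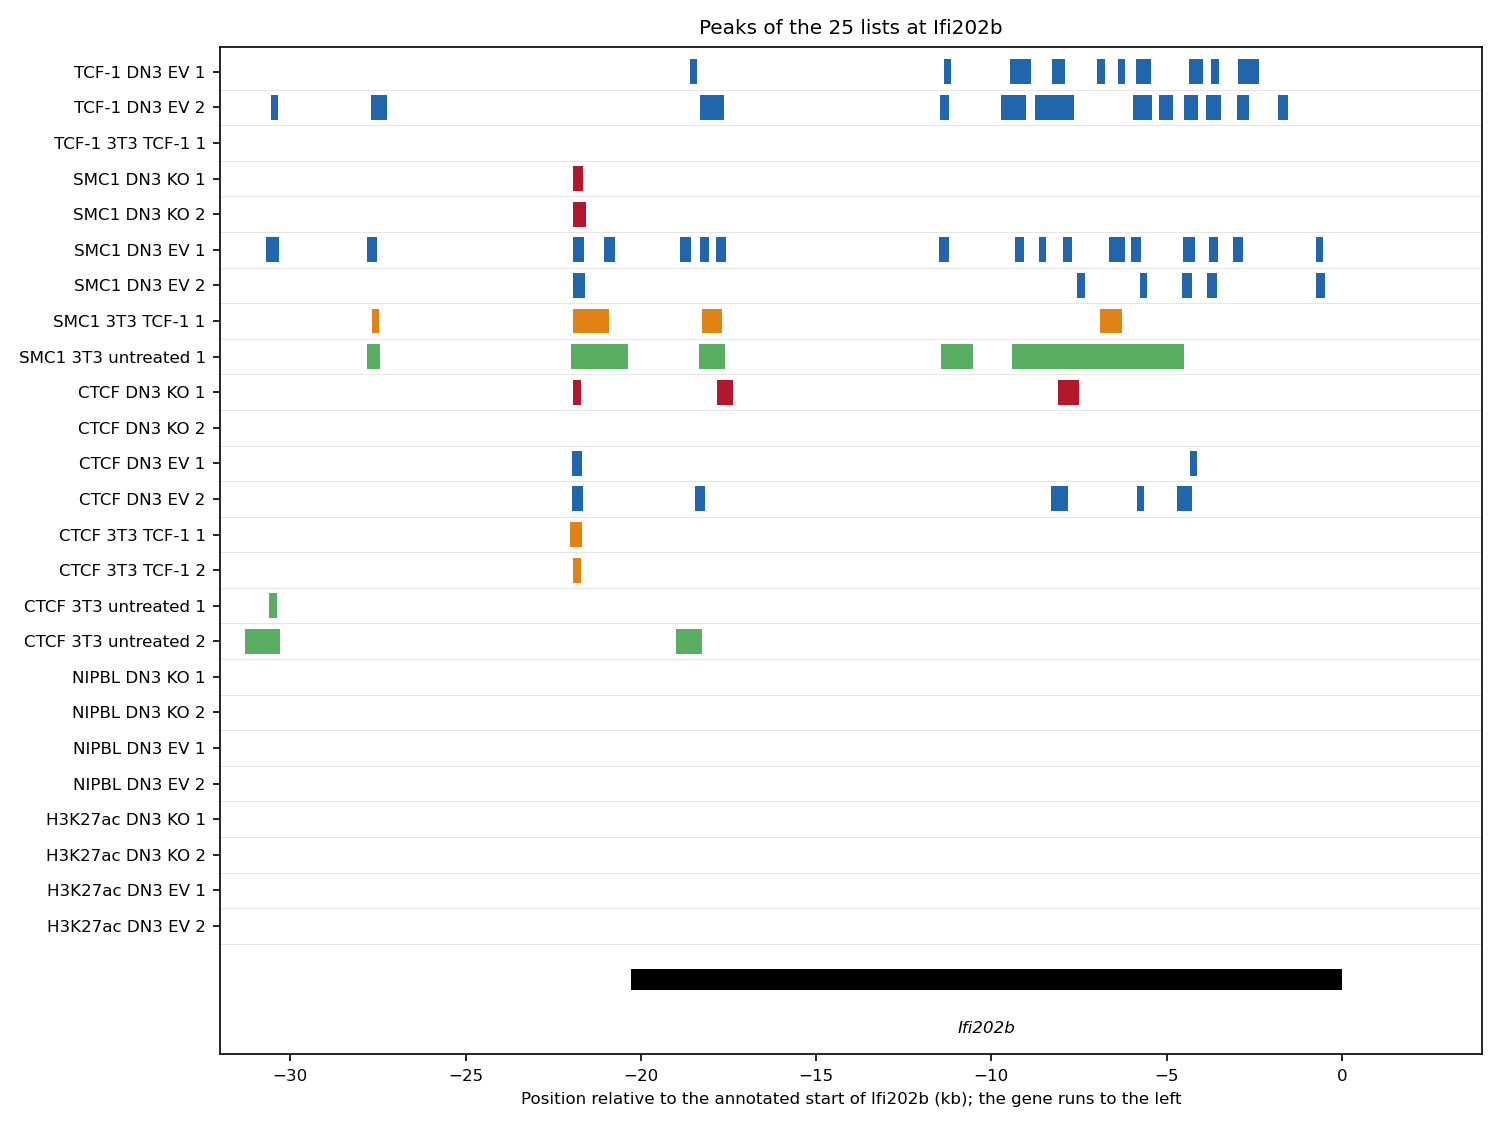
Peaks of all 25 lists from 32 kb downstream to 4 kb upstream of the annotated start of Ifi202b (x axis, kb, with the gene running to the left; 1 row per list, boxes to scale, gene body in black). SMC1 peaks inside the gene are present in both EV lists and absent from both KO lists, whose only SMC1 peak lies beyond the far end of the gene, and no NIPBL or H3K27ac peak is present.

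Ifi202b was the member whose SMC1 coverage differed most between KO and EV cells. It was 289 and 371 bp in the KO lists, against 4204 and 1575 bp in the EV lists. Both KO lists were below both EV lists, by 2559.5 bp on average (330 ± 58.0 bp in KO cells and 2890 ± 1860 bp in EV cells, SD, n = 2 each, exact permutation p = 0.333, 2-sided, the smallest that 2 lists against 2 allow). Within the gene body alone, coverage was 0 and 0 bp in KO cells, against 3609 and 1237 bp in EV cells. The EV peaks were narrow: when peaks narrower than their list's median were dropped, the difference was -228 bp and the groups overlapped. Without EV list 1 it was -1245 bp, and without EV list 2 it was -3874 bp. SMC1 was lower in both KO lists in 2.81% of the 15658 genes with any SMC1 coverage and higher in 58.4% of them, and of the 5 members 1 was lower and none was higher. As a share of the gene's length, the Ifi202b difference was -10.5 percentage points, with 10 genes lower still, and the median over all genes was 0.96 percentage points. KO lists held more SMC1 peaks than EV lists, 88886 and 96416 against 70438 and 77587.

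**Figure D2:**
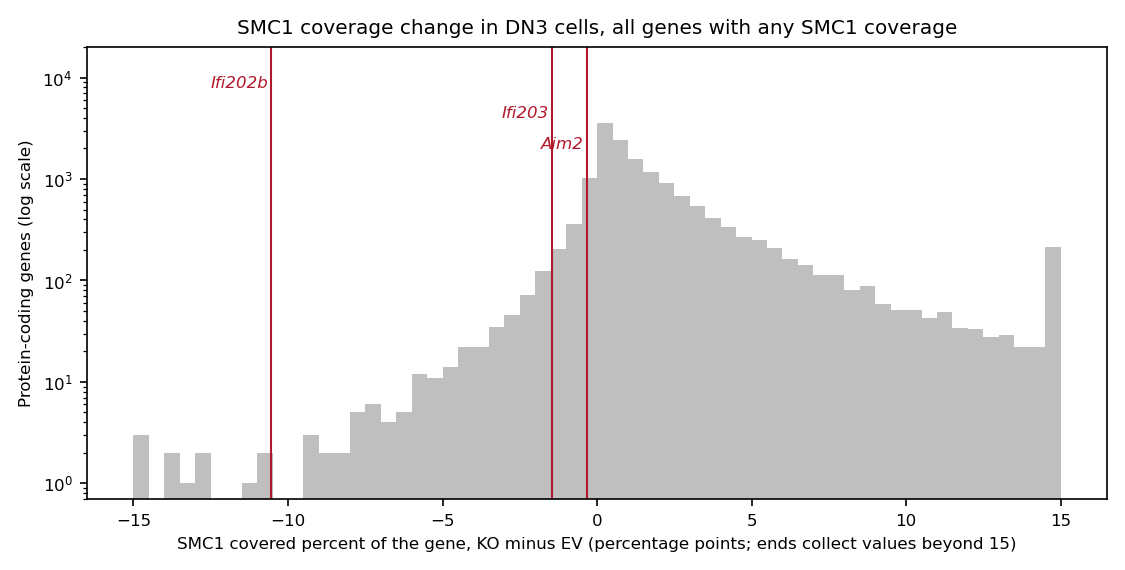
Number of protein-coding genes (y axis, log scale) by the change in the percent of the gene covered by SMC1 peaks, KO minus EV lists in DN3 cells (x axis, percentage points). Red lines mark the 3 members with any SMC1 coverage, and Ifi202b lies at -10.5 in the sparse left tail, while Ifi203 at -1.47 and Aim2 at -0.33 lie nearer the median of 0.96, with 2.60% and 7.57% of genes lower still.

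The single regions gave the same picture. Of 30 SMC1 regions in the window, 6 had a peak in all 4 DN3 lists, and 7 had one in both EV lists and in neither KO list. None had one in both KO lists and in neither EV list. The other 17 had a peak in 1 EV list and in no KO list, most of them in EV list 1. At Ifi202b, 11 of 16 regions were of this last kind. Over the genome, 0.969% of 117362 SMC1 regions were in both EV lists and in neither KO list, and 9.26% were in both KO lists and in neither EV list. Of the 7 EV-specific regions, 4 were at Ifi202b, at chr1:173976831-173977291, 173978298-173978645, 173979003-173979298 and 173982103-173982351. The last of these lay just inside the annotated start. The others were at chr1:173437170-173437899 in Aim2, chr1:173847618-173848088 between genes and chr1:173913292-173913795 within 2 kb of Ifi211. The KO lists shared 86.0% of the base pairs of their window peaks combined, against 32.1% for the EV lists.

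Beyond the far end of Ifi202b, SMC1 was present in every list of both lines. The region chr1:173960897-173961267 carried SMC1 in all 4 DN3 lists. CTCF lay over it at chr1:173960883-173961182 in 1 of 2 KO lists and 2 of 2 EV lists. In fibroblasts the induced and untreated lists both had SMC1 there, at chr1:173960843-173962472, and CTCF at chr1:173960836-173961171 was present in both induced lists and in neither untreated list.

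CTCF at Ifi202b varied between lists of one condition as much as between conditions. Coverage was 1263 and 0 bp in the KO lists, against 491 and 1648 bp in the EV lists, which overlap. A region at chr1:173978140-173978720 had CTCF in both EV lists and in neither KO list, as did 0.46% of 69615 CTCF regions. It overlaps a TCF-1 site and an EV-specific SMC1 region. H3K27ac and NIPBL covered 0 bp of Ifi202b in every DN3 list.

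Aim2 alone of the 5 members had CTCF, SMC1, NIPBL and H3K27ac coverage in every DN3 list of these antibodies, and it had no TCF-1 coverage. It is a gene of 116494 bp, of which 50453 bp lie before the window and are counted in its values. Its H3K27ac coverage was 5364 and 4428 bp in KO cells, against 7093 and 7758 bp in EV cells. The groups did not overlap, and the difference in means was -2529.5 bp (exact permutation p = 0.333). In EV cells the main element was a single peak of 7093 bp in one list and 7458 bp in the other. In KO list 1 the same stretch, chr1:173436445-173444035, was split into 3 peaks of 1300, 3730 and 334 bp, and in KO list 2 into 2 peaks of 1951 and 2477 bp. The RefSeq promoter entry of Aim2, chr1:173420354-173420653, was covered in no list.

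At Aim2 SMC1 covered 2679 and 3128 bp in KO cells, against 2938 and 3659 bp in EV cells, which overlap, with a difference in means of -395 bp. Per Mb covered by the list the SMC1 difference was -33.1 bp, with both KO lists below both EV lists. Within the stretch of the main H3K27ac element, SMC1 covered 619 and 742 bp in KO cells, against 1074 and 1085 bp in EV cells. Inside the window CTCF covered 1169 and 1304 bp of Aim2 in KO cells, against 720 and 911 bp in EV cells. Over the whole gene it covered 2110 and 2263 bp in KO cells, against 1400 and 1682 bp in EV cells. Over the whole gene both KO lists were thus above both EV lists, by 645.5 bp on average. With peaks at or above the median width alone the difference was 175.5 bp, and per Mb covered by the list it was 8.07 bp, both with overlap. Aim2 was the 1 member higher in this sense, against 38.2% of 14542 genes, and no member was lower, against 2.23%. A CTCF region at chr1:173440593-173440874, under the H3K27ac peak, was present in both KO lists and in neither EV list, as were 6.36% of CTCF regions. NIPBL covered 1239 and 409 bp in KO cells, against 218 and 415 bp in EV cells. None of the 5 members was higher or lower for NIPBL in both KO lists, where 26.3% of 12222 genes were higher and 0.475% lower.

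Mndal and Ifi203 carried H3K27ac over their promoters. All 300 bases of both promoters shown were covered in every one of the 4 DN3 lists. The Ifi202b promoter was covered in no list of any kind. At Mndal, H3K27ac was 3434 and 3503 bp in KO cells, against 3741 and 3586 bp in EV cells. CTCF and SMC1 covered 0 bp of Mndal in every DN3 list, and NIPBL covered it in KO list 1 alone, with 366 bp. At Ifi203, H3K27ac was 2274 and 2226 bp in KO cells, against 2993 and 2396 bp in EV cells. Beside its TCF-1 peaks, Ifi203 had SMC1 at 0 and 0 bp in KO cells, against 777 and 0 bp in EV cells, and CTCF at 329 and 257 bp in KO cells, against 380 and 280 bp in EV cells.

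Ifi204 was the member with most spread between its KO lists. H3K27ac covered 799 and 2423 bp in KO cells, against 2981 and 2912 bp in EV cells. No CTCF, SMC1, NIPBL or TCF-1 peak of any DN3 list lay at the gene. By the authors' −log10 q the Ifi204 peak stood at percentile 33.5 and 20.5 of the KO lists, and at 59.6 and 63.4 of the EV lists. The Mndal peak stood at percentile 59.0 and 63.7 of the KO lists, and at 72.7 and 73.5 of the EV lists. These lists differ in length, so such percentiles place a peak within its own list and show no change.

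H3K27ac coverage was thus lower in both KO lists than in both EV lists at 4 of the 5 members, with Ifi202b at 0 throughout. Over all genes, 28.3% of 12431 were lower in this sense and 26.3% were higher. KO minus EV, the differences in means were -195 bp at Mndal, -444.5 bp at Ifi203, -1335.5 bp at Ifi204 and -2529.5 bp at Aim2, and none could reach an exact p under 0.333. Within the gene body alone, the groups overlapped at Mndal (-39.5 bp) and at Ifi203 (63 bp). Without EV list 1 the Mndal difference was -117.5 bp. Leaving out a list moved the Ifi204 difference between -2147.5 and -523.5 bp, without KO list 2 and KO list 1, and the Ifi203 difference between -743 and -146 bp, without EV list 2 and EV list 1. Of all genes, 34.0% had a lower change per length than Mndal, 23.3% than Ifi203, 8.67% than Ifi204 and 20.2% than Aim2. The H3K27ac peaks of the window fell into 14 regions, of which 8 were in all 4 lists. None was in both KO lists alone, as were 4.83% of 49781 H3K27ac regions, or in both EV lists alone, as were 7.99%. The remaining 6 were in 1 or 2 of the 4 lists.

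**Figure D3:**
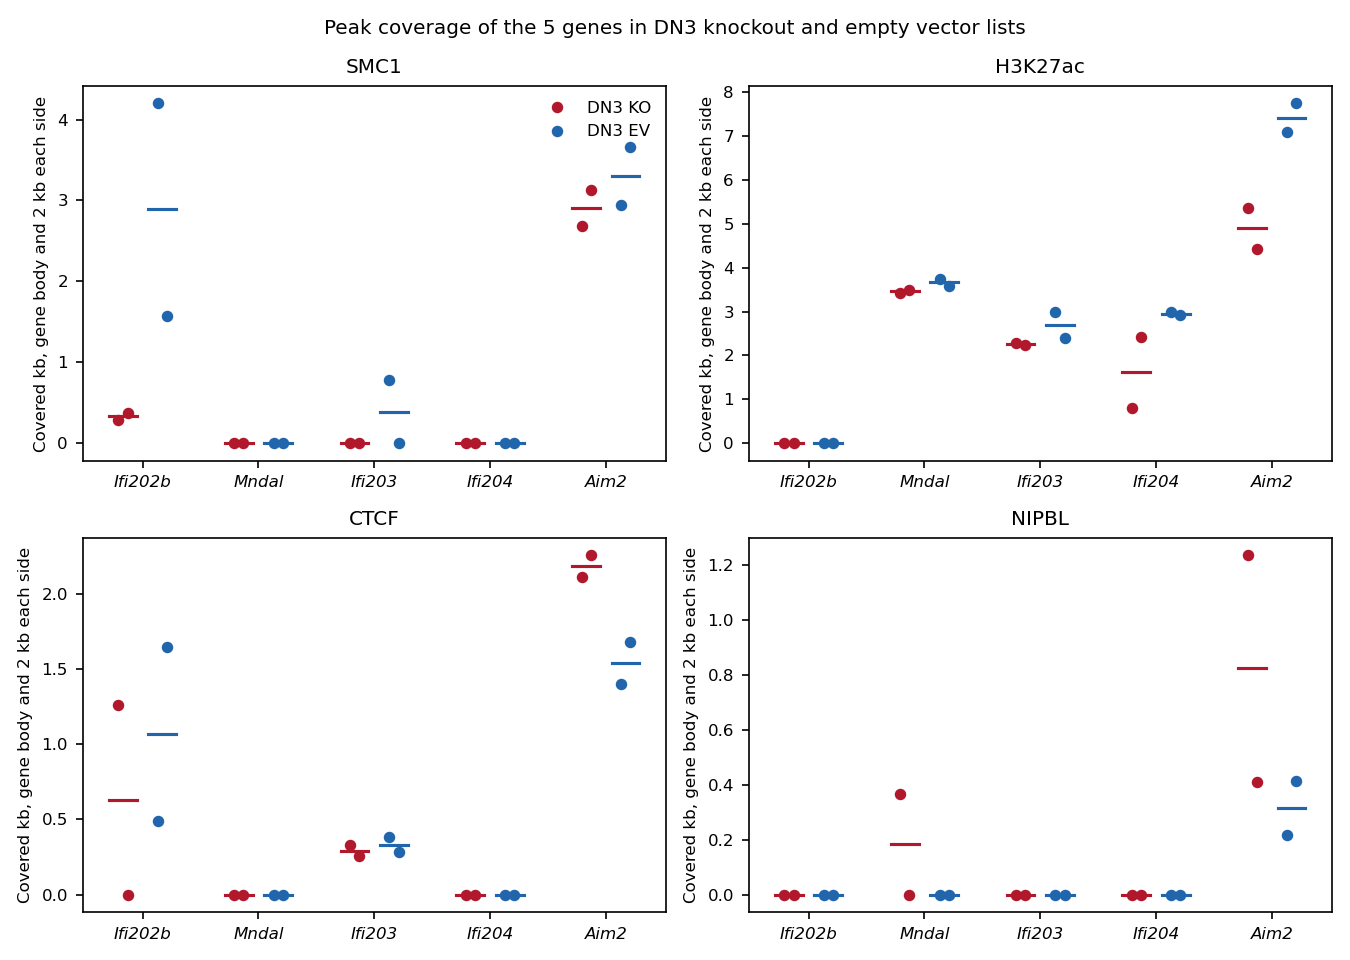
Covered kb (y axis) at each member with 2 kb on each side, for 4 antibodies in DN3 cells. Points are lists, KO in red left of EV in blue, and bars are means of 2 lists. SMC1 at Ifi202b and H3K27ac at Mndal, Ifi203, Ifi204 and Aim2 are lower in both KO lists.

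Over the whole window the same 2 antibodies separated KO from EV cells. SMC1 covered 2282 and 2590 bp in KO cells, in 6 and 6 peaks, against 9061 and 5503 bp in EV cells, in 28 and 15 peaks. H3K27ac covered 17335 and 17754 bp in KO cells, in 11 and 10 peaks, against 24745 and 24218 bp in EV cells, in 12 and 9 peaks. The differences in means were -4846 bp for SMC1 and -6937 bp for H3K27ac, each with an exact p of 0.333. Outside Ifi202b the SMC1 difference was -2286.5 bp. Over the whole window the SMC1 difference was -1444 bp with peaks at or above the median width alone, and -3067 bp without EV list 1. CTCF covered 3073 and 1771 bp in KO cells, against 1892 and 3432 bp in EV cells (exact p = 0.667), and NIPBL 1684 and 187 bp in KO cells, against 616 and 202 bp in EV cells (exact p = 1.0). The mean CTCF difference was -240 bp and turned to 530 bp without EV list 2. That for NIPBL was 526.5 bp and turned to -222 bp without KO list 1.

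Between the genes, coverage was thin. In the 245236 bp more than 2 kb from any annotated gene, SMC1 covered 351 and 323 bp in KO cells, against 1411 and 820 bp in EV cells. One region between Ifi203-ps and Mndal, at chr1:173853716-173854085, carried SMC1 in all 4 DN3 lists, with CTCF in all 4 as well. H3K27ac covered 686 and 453 bp between genes in KO cells, against 1352 and 1120 bp in EV cells. TCF-1 covered 413 and 1223 bp there in EV cells. In fibroblasts SMC1 covered 2990 bp there in the induced list and 2593 bp in the untreated list, and TCF-1 covered 1860 bp in the induced list.

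**Figure D4:**
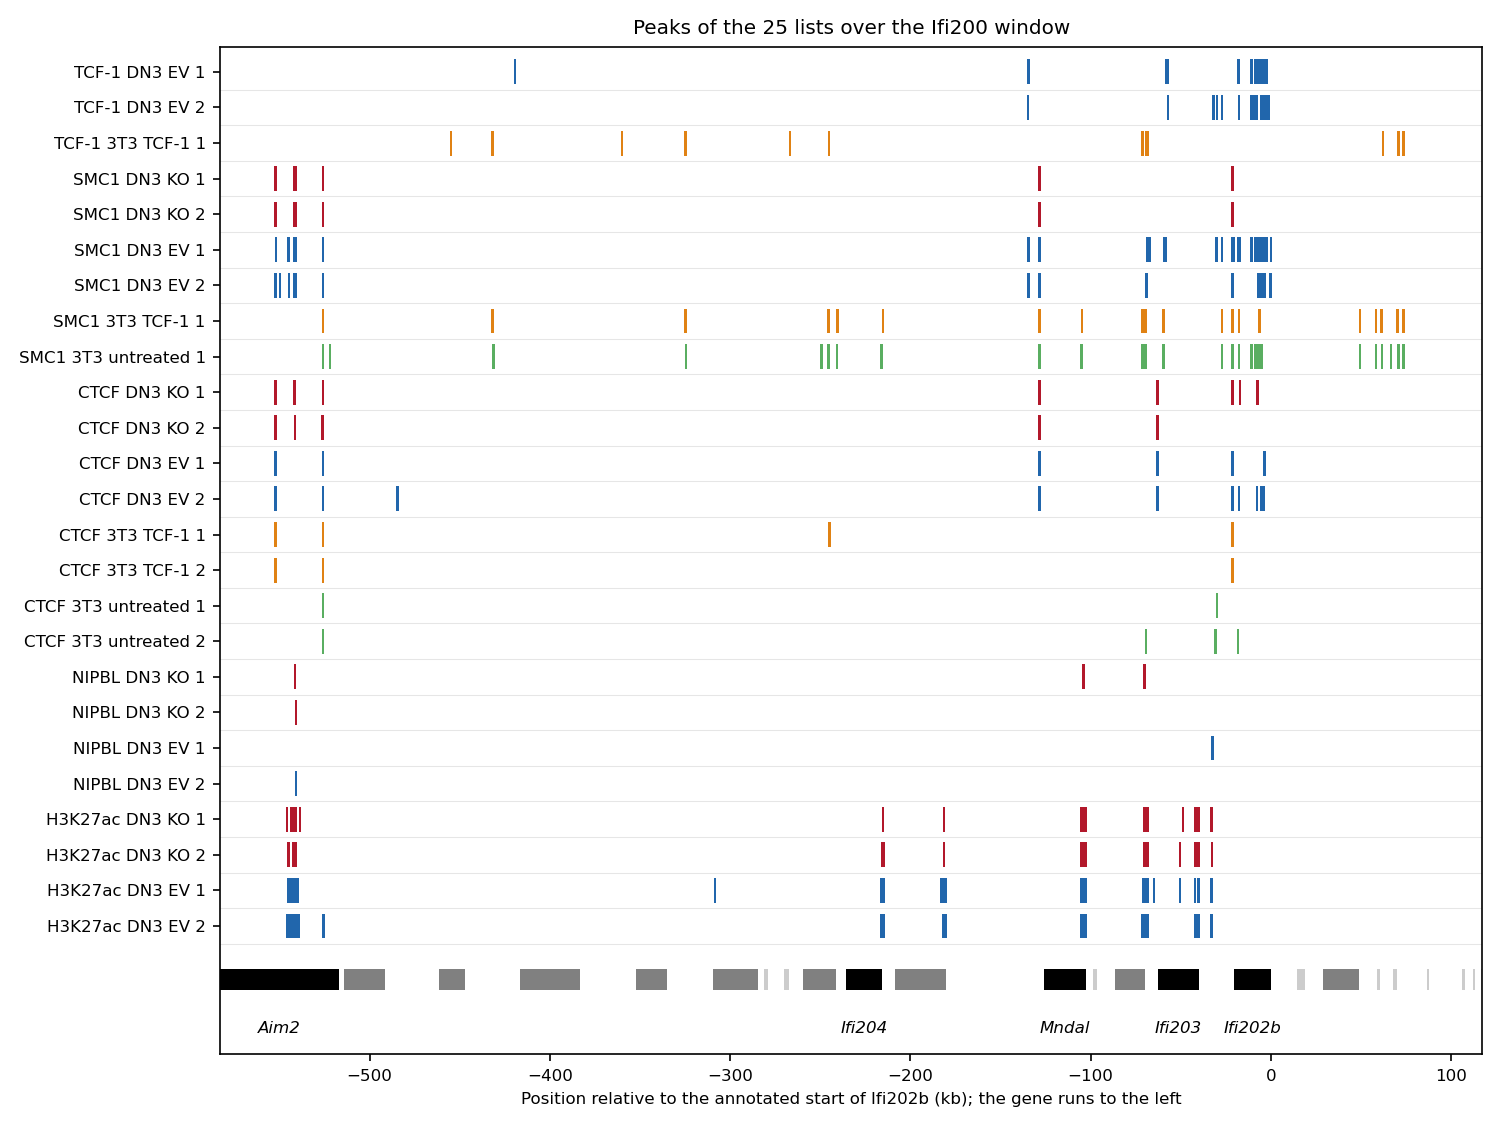
Peaks of the 25 lists (rows) over the 700 kb window (x axis, kb from the annotated start of Ifi202b; narrow peaks are widened to be visible). Gene bodies are drawn below, members in black, other Ifi200 genes in dark grey and other genes in light grey, and Aim2 continues beyond the left edge. TCF-1 peaks of EV cells gather at Ifi202b, whereas those of induced fibroblasts lie elsewhere.

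In fibroblasts, TCF-1 lay at other places in the cluster. The induced TCF-1 list held 13 peaks in the window, covering 5056 bp, and 0 bp at each of the 5 members, whereas 53.6% of genes in the annotation held at least 1 such peak. Of the 8 other protein-coding Ifi200 genes, 3 had a fibroblast TCF-1 peak. They were Ifi211 with 1286 bp, Ifi207 with 477 bp and Ifi214 with 324 bp, and they are named because the count is small.

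SMC1 at Ifi202b covered 2228 bp in induced fibroblasts, against 8224 bp in untreated fibroblasts. The other members had 200 bp against 225 bp at Mndal, 261 bp against 296 bp at Ifi203, 714 bp against 1808 bp at Ifi204, and 2230 bp against 3088 bp at Aim2. The 5 members were thus all lower in the induced list, as were 55.4% of 16113 genes, with 44.4% higher, and with 1 list per condition there is no replicate check. The Mndal and Ifi203 differences are under 40 bp and rest on 1 peak each. The widest untreated peak at Ifi202b, chr1:173973432-173978345, encloses the DN3 TCF-1 sites at chr1:173974099-173975202 and 173976900-173977416. It overlaps part of the site at 173973134-173973980, and the other Ifi202b sites lie outside it. No TCF-1 list exists for untreated fibroblasts here. Over the window SMC1 covered 16210 bp in induced cells, against 24948 bp in untreated cells. Of its 23 SMC1 regions there, 19 were in both lists, 4 in the untreated list alone, against 20.1% of 117124 regions in the genome, and none in the induced list alone, against 11.9%.

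CTCF in the window covered 1621 and 1094 bp in induced fibroblasts, against 661 and 3022 bp in untreated ones, with the groups overlapping (exact p = 1.0). At Ifi202b it covered 336 and 227 bp in induced cells, against 0 and 729 bp in untreated cells. Aim2 had 2225 and 1819 bp in induced cells, against 1240 and 1851 bp in untreated cells. Mndal, Ifi203 and Ifi204 had no CTCF coverage in any fibroblast list. None of the members was higher or lower in both induced lists, while 80.2% of 14999 genes were higher and 0.4% lower. Of 7 CTCF regions in the window, 2 were in both induced lists alone, against 21.2% of 75387 regions. The 1 region in both untreated lists alone, against 0.0504% of regions, was chr1:173951545-173952562, between Ifi203 and Ifi202b.

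**Figure D5:**
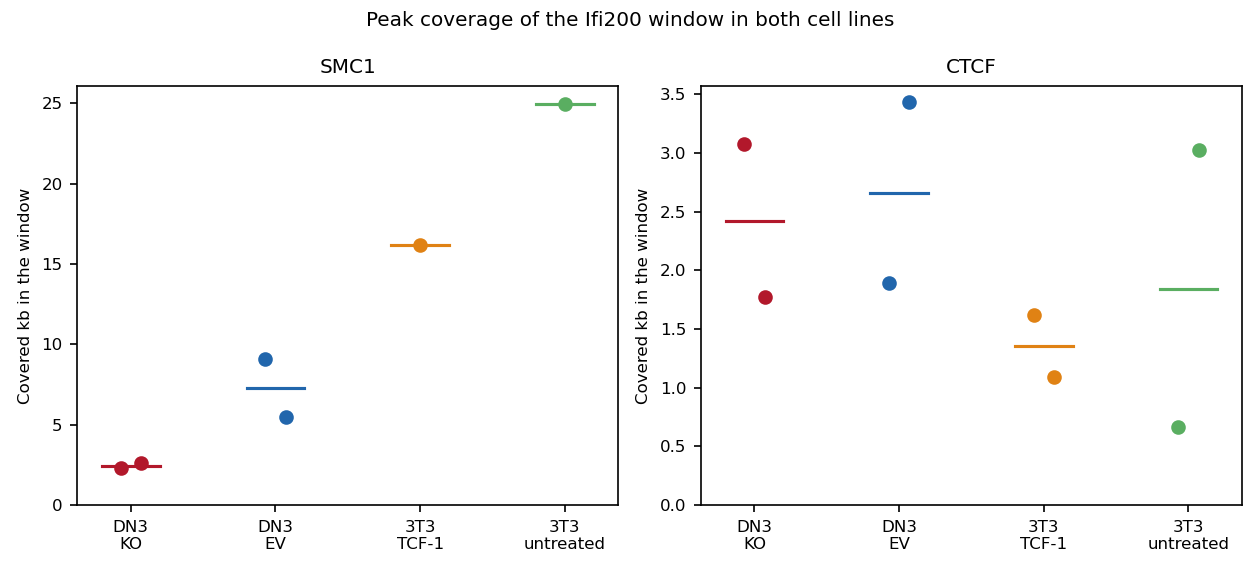
Covered kb of the window (y axis, from 0) by SMC1 and CTCF peaks in each condition. Points are lists and bars are means. All 4 DN3 SMC1 lists lie below both fibroblast lists, and the CTCF lists of the lines overlap.

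DN3 cells had less SMC1 coverage in the window than fibroblasts. The 4 DN3 lists, 2282 and 2590 bp for KO and 9061 and 5503 bp for EV cells, lay below the fibroblast lists at 16210 and 24948 bp (4.86 ± 3.15 kb, n = 4, and 20.6 ± 6.18 kb, n = 2, SD; exact permutation p = 0.0667, the smallest that 4 lists against 2 allow). Fibroblast SMC1 lists covered more of the genome as well, 94.4 and 97.7 Mb, against 52.3 and 56.4 Mb for KO and 37.5 and 38.7 Mb for EV cells. The part of these totals in the difference was not tested beyond a scaling to the list total, under which it was -95.0 bp per Mb covered by the list, with an exact p of 0.2 and overlapping lines. Over the 5 members alone it was -4732 bp, again with overlap. Mndal and Ifi204 were lower in every DN3 list than in every fibroblast list, as were 57.2% of 16938 genes, and no member was higher, against 10.6%. The Mndal difference, -212.5 bp, was 0 bp with narrow peaks dropped or lists cut to equal length and turned to 48.5 bp with 10 kb on each side. The Ifi204 difference, -1261 bp, was -714 bp without the untreated fibroblast list and -631.5 bp within the gene body alone. At Ifi202b the lines overlapped, since EV list 1, at 4204 bp, exceeded the induced fibroblast list.

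CTCF coverage of the window averaged 2.54 ± 0.835 kb in DN3 cells and 1.60 ± 1.03 kb in fibroblasts (SD, n = 4 each, exact permutation p = 0.171). Ifi203 was the member that separated the lines. It had 257 to 380 bp of CTCF in all 4 DN3 lists and 0 bp in all 4 fibroblast lists (exact permutation p = 0.0286, the smallest that 4 against 4 allow, and 0.175 after Benjamini-Hochberg adjustment over all 15777 genes). The 4.8% of genes with CTCF higher in every DN3 list include it, and no gene passed the adjusted threshold of 0.05, higher or lower (0% each). In 11.5% of genes CTCF was lower in every DN3 list, none of them a member. The peak behind it, chr1:173919271-173919659, lies within 2 kb of the far end of the gene. With 10 kb on each side the difference turned to -77 bp, within the body alone it was 0 bp, and with peaks at or above the median width or with lists cut to equal length it was 95 bp, with overlap.

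The rest of the interferon system was counted for comparison, and its lists were drawn up with results of these data known. None of the 8 other protein-coding Ifi200 genes had a DN3 TCF-1 site in both lists. Ifi211 alone of them carried H3K27ac in every list, with 3185 and 3133 bp in KO cells, against 3737 and 4027 bp in EV cells, and 6 had none in any list. Those 6, which were Ifi205, Ifi206, Ifi207, Ifi209, Ifi213 and Ifi214, had no DN3 peak of any antibody. The 8 genes had a median H3K27ac coverage of 0% of the gene in both conditions, whereas over all genes it was 2.10% in KO and 2.42% in EV cells. Ifi211 was named after its values were seen.

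Of 26 interferon-inducible genes outside the family, 2 had a TCF-1 site in both EV lists, against 13.7% of all genes. These were Eif2ak2, the double-stranded RNA kinase PKR, with 438 and 508 bp, and Bst2, the virus-tethering protein, with 475 and 227 bp. H3K27ac was lower in both KO lists at 12 of the 26 and higher at 2, against 28.3% and 26.3% of all genes. SMC1 was lower at 3 and higher at 9, against 2.81% and 58.4%. Bst2 had 4785 and 4930 bp of H3K27ac in KO cells, against 5245 and 5489 bp in EV cells. Rtp4, an interferon-induced gene, had 1781 and 984 bp in KO cells, against 5987 and 5030 bp in EV cells. Isg15, a ubiquitin-like modifier, had 4363 and 5395 bp in KO cells, against 5395 and 5395 bp in EV cells, a tie at the upper value.

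Of 19 interferon signalling genes, 4 had a TCF-1 site in both EV lists, against the same 13.7%. Among them were Irf2, with 920 and 1012 bp of TCF-1, Stat2 with 431 and 326 bp, and the kinase gene Tbk1 with 318 and 423 bp. SMC1 was higher in both KO lists at 10 of the 19 and lower at none, and H3K27ac was higher at 5 and lower at 5. Over all genes SMC1 was higher in 58.4% and lower in 2.81%, and H3K27ac was higher in 26.3% and lower in 28.3%. Of 10 inflammasome genes, 1 had such a TCF-1 site, again against 13.7%, the adaptor gene Pycard, with 297 and 291 bp. Pycard had 3680 and 4069 bp of SMC1 in KO cells, against 3511 and 2970 bp in EV cells.

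The genes whose coverage over the 25 lists most resembled that of Ifi202b lay on other chromosomes. By Pearson's r of the gene's percentile among all genes in each list, they were Rmnd1 (0.75), Mtch2 (0.74), Adat2 (0.73), Zcchc9 (0.72) and Jmjd1c (0.70). All 5 had 1 DN3 TCF-1 site. Unlike Ifi202b, all 5 also had H3K27ac and NIPBL in every DN3 list, and 397 to 1631 bp of fibroblast TCF-1. None of them had SMC1 lower in both KO lists than in both EV lists. Among the members the same measure was 0.30 for Ifi203, -0.16 for Ifi204, -0.22 for Aim2 and -0.37 for Mndal. The 25 lists share antibodies and cells, so these values are descriptions.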

How the data were processed

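ChIP-seq peak lists of DN3 and NIH-3T3 cells were used as deposited, in mm10 coordinates. Bowtie2, MACS2 and bedtools are named, without versions, in the submitters' processing notes, and reads were paired, 38 and 37 bp. The CTCF, SMC1 and TCF-1 lists hold positions alone. For NIPBL and H3K27ac the authors also deposited a score per peak, a fold enrichment (a ratio), and −log10 p and −log10 q. Peaks were deposited per sample. Thresholds, mapping filters and the handling of reads with several possible origins are not stated in the labels or the notes.

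Covered base pairs and peaks were counted over the window and over gene bodies (RefSeq, GRCm38.p6) with 2 kb on each side, in Python 3.11.15 with numpy 2.4.6 and pandas 2.3.3. Any overlap of 1 bp counted. A region is a run of overlapping peaks of the lists compared. Interval sums were tested on simulated intervals against bedtools 2.31.1. Groups were compared by exact 2-sided permutation tests over lists. Nothing says that lists of a group came from separate cultures, so p-values measure the spread between lists, which may be technical. Between the 2 lists of a group, 37.8 to 74.5% of the combined base pairs were shared. A gene was called lower or higher where the lists of the groups did not overlap. Promoter pairs were aligned with Biopython 1.88. All 5 members, up to 4 genes per comparison list by TCF-1 coverage and the 5 genes most like Ifi202b were named by rule. The members and lists were chosen with earlier results of these data known. Alternatives were stricter peaks, other flanks, merged peaks, other scalings, peak numbers, lists left out and a replicate block.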

Additional observations from a re-analysis of the deposited data

Results flagged for a closer look

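SMC1 differed between the lines in the direction of its change with TCF-1. Over the window, coverage with TCF-1 minus coverage without it was 4846 bp in DN3 cells (EV minus KO) and -8738 bp in fibroblasts (induced minus untreated). At Ifi202b it was 2559.5 bp in DN3 cells and -5996 bp in fibroblasts. Both KO lists lay below both EV lists, and the induced list lay below the untreated one. The difference between the lines was not tested, since the fibroblasts have 1 list per condition.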

How the results depend on the processing

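KO minus EV, SMC1 coverage of the window kept its sign under every alternative run, from -6625 to -3067 bp with a list left out, and so did H3K27ac (-7200.5 to -6673.5 bp), except that the number of H3K27ac peaks differed by 0. The DN3 CTCF, DN3 NIPBL and fibroblast CTCF differences between conditions did not hold one direction. For DN3 CTCF (-240 bp) it was 258 bp with peaks at or above the median width, 170.5 bp over the 5 members, 198 bp without Ifi202b, and -1010 to 530 bp with a list left out. For NIPBL (526.5 bp) it was -409 bp at equal list length, -20.1 bp per Mb covered by the list, and -222 to 1275 bp with a list left out. For fibroblast CTCF (-484 bp) it was 393.5 bp over the members, 0.5 peaks by number, and -1664.5 to 696.5 bp with a list left out. Fibroblast SMC1 (-8738 bp) kept its sign and was -7700 bp for peaks at or above the median width, -8287 bp at equal list length, -83.6 bp per Mb covered, -8008 bp over the members, -4 peaks by number and -2742 bp without Ifi202b. DN3 minus fibroblast, SMC1 was -20089 to -11351 bp and CTCF 630 to 1417 bp with a list left out, and CTCF differed by 4 peaks (exact permutation p = 0.0286). The 9 TCF-1 sites became 20 with a peak in either list, 5 with peaks at or above the median width, and 14 to 15 with one list alone. With peaks merged across 500 bp they became 6, a setting not run for genes outside the window. The 13 fibroblast TCF-1 peaks became 6 with peaks at or above the median width and, at the DN3 list length, 2. Among members whose lists did not overlap between groups, the direction turned for Ifi203 H3K27ac in the body alone (63 bp), Mndal SMC1 in fibroblasts at equal list length (200 bp), and with 10 kb flanks for Ifi203 CTCF (-77 bp) and Mndal SMC1 (48.5 bp) between the lines. Where the lists overlapped, Ifi202b CTCF, KO minus EV (-438 bp), turned to 79 bp with narrow peaks dropped and to 140.5 and 193.5 bp without EV or KO list 2, and Ifi203 CTCF (-37 bp) to 13 bp without EV list 1, among others. The causes were not tested.

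With the replicate number as a block, the replicate block gave the same mean differences, with exact sign-flip p of 1.0 for CTCF (-240 bp), 0.5 for SMC1 (-4846 bp), 1.0 for NIPBL (526.5 bp), 0.5 for H3K27ac (-6937 bp) and 1.0 for fibroblast CTCF (-484 bp), where 0.5 is the smallest 2 pairs allow. Across genes, deviations in covered bp of same-numbered KO and EV lists correlated at -0.44 for CTCF, 0.10 for SMC1, -0.54 for NIPBL and 0.07 for H3K27ac, and at -0.07 for induced and untreated CTCF, so the numbers are not shown to pair samples. As log2 ratios scaled to the list totals, the correlations were -0.13 for CTCF, 0.04 for SMC1, -0.19 for NIPBL and 0.01 for H3K27ac. For induced and untreated CTCF the scaled value was -0.02. Crossing the replicate numbers for CTCF and NIPBL was an alternative chosen after seeing the data, like the window without Ifi202b. It made 0 calls, as did the labelled numbers, which was certain beforehand because 2 pairs allow no p under 0.5. Peak lists without reads set the limit here: a region under the authors' threshold counts as 0.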
